A study of Rattus norvegicus with 18 samples.

Results

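Handled hippocampus was compared with handled cortex in the rat, on 6 of the 18 arrays of the study: the 3 whose titles read Control-Hippocampus and the 3 whose titles read Control-Cortex. Total RNA was hybridised to Affymetrix rat expression arrays, and handled rats served as the unstressed controls of rats exposed to chronic immobilization stress. Hippocampus and cortex of the stress group (3 arrays each) and amygdala of the handled group (3 arrays) are used below as further samples. The sources used here give no strain, sex or age, no schedule of handling or stress, and no account of which part of the cortex was dissected. Every title carries the tag e1 and the arrays of a group differ by the tags le1, le2 and le3, which the labels do not explain. The labels therefore do not show whether the 3 arrays of a group are separate animals, pools or repeats of 1 RNA, and the p-values reflect the spread among arrays alone, possibly a technical one. A label field for the tissue source, repeated at the start of each title, names the amygdala for every array, so the regions were taken from the rest of the title and the description and were checked against marker genes first.

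The hippocampus and the neocortex are both built from the dorsal wall of the forebrain, and both are dominated by glutamatergic pyramidal neurons with a minority of GABAergic interneurons. The hippocampus is a sheet of a single principal cell layer, divided into the CA fields and the dentate gyrus with its granule cells, whereas the neocortex stacks layers of neurons that differ in birth date, projection and transcription factors. The hippocampus also carries white matter on its ventricular face, lies against the choroid plexus, and has long been known as a main site of mineralocorticoid receptors in the brain. The cortex is covered by the meninges.

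The arrays of a region resembled each other more than those of the other region. Over the 18625 probe sets tested, Spearman correlations were 0.963 to 0.971 within handled hippocampus, 0.980 to 0.981 within handled cortex and 0.925 to 0.936 between them. The 6 arrays had median intensities of 49.8 to 52.9. The log2 ratio of 3′ to 5′ control probe sets, which tracks RNA length, was 1.02 ± 0.11 (SD, n = 3) in hippocampus and 1.11 ± 0.09 in cortex for hexokinase, 1.54 ± 0.23 and 1.66 ± 0.05 for beta-actin, and 0.26 ± 0.10 and 0.29 ± 0.04 for GAPDH.

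Values below are intensities, given as mean ± SD over 3 arrays, and log2 differences of hippocampus minus cortex on log2(intensity + 16), given ± SE from limma's moderated fit, so that a negative difference means higher in cortex. This scale understates the change of dim transcripts. Called means a Benjamini-Hochberg adjusted p under 0.05 over all 18625 probe sets. In handled rats 4815 probe sets were called (25.9%), 2278 of them higher in hippocampus and 2537 higher in cortex. At least 2-fold on this scale were 337 higher in hippocampus and 401 higher in cortex, and at least 4-fold were 32 and 50. By genes, with 1 probe set each, 1344 of 10256 were called higher in hippocampus (13.1%) and 1518 higher in cortex (14.8%), around a median log2 difference of -0.01. These shares are the background for every gene group below. The members of those groups were chosen with earlier results of these data known. Over all groups, 399 of 700 distinct tested members were called (57%). A share above the background in a group cannot be told apart from that choice. Where groups are said not to overlap, this describes the arrays of that gene alone, and the share of all genes without overlap is not given here. RNA came from tissue pieces, so fewer cells of a type and less RNA per cell cannot be told apart in any of these values.

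The genes with the largest excess in hippocampus included transcripts of granule and pyramidal cells, and the largest excess was in a transcript typical of the choroid plexus. Ttr, the gene of transthyretin, a carrier of thyroid hormone that the choroid plexus makes in bulk, read 1038, 1128 and 1138 on the 3 hippocampus arrays and 40.4, 65.2 and 57.9 on the 3 cortex arrays, a log2 difference of 4.002 ± 0.14 (adjusted p = 7.64e-16). Prox1, the transcription factor that specifies dentate granule cells, read 617, 588 and 606 in hippocampus and 76.1, 69.9 and 81.3 in cortex (2.76 ± 0.09, adjusted p = 2.37e-16). Both were picked, like the rest of the 20 genes per direction, for a large difference and handled arrays without overlap. Hpca encodes hippocalcin, a calcium sensor named for its abundance in hippocampal pyramidal cells, and read 4504, 4796 and 4338 in hippocampus and 963, 945 and 968 in cortex (2.23 ± 0.07). Homer3, a scaffold of the postsynaptic density, read 400.4, 352 and 380.1 against 31.7, 54.2 and 41.3 (2.77 ± 0.17). Lpl, lipoprotein lipase, read 820.3, 781 and 802 against 134, 116 and 137 (2.50 ± 0.09). Amygdala arrays of handled rats were on the cortex side of this gap for these genes, with 102 ± 6.82 for Prox1, 899.9 ± 21.5 for Hpca and 35.2 ± 13.3 for Homer3, whereas Ttr was intermediate there at 512 ± 40.6.

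The rest of the 20 genes highest in hippocampus were a mixed set. Rem2 and Rerg, both small GTPases of the Ras superfamily, differed by 2.94 ± 0.19 and 2.85 ± 0.11. Among regulators of transcription were Lhx9 (2.45 ± 0.17) and Nhlh1 (2.23 ± 0.26), a basic helix-loop-helix factor. Hapln4, a link protein of perineuronal nets, differed by 2.49 ± 0.10, and Mas1, a receptor for angiotensin 1-7, by 2.28 ± 0.12. Nts, the precursor of the peptide neurotensin, read 144, 209.6 and 169.6 in hippocampus and 27.3, 31.98 and 9.86 in cortex (2.32 ± 0.19). Fibcd1, a marker of CA1 pyramidal cells, was near the floor of the arrays in cortex, at 1.31, 13.6 and 3.27, against 106, 92.01 and 82.98 in hippocampus (2.35 ± 0.28). The others were Rnf182, Lrrc10b, Cpm, Strip2, Cpne4, Clmp and Pkp2, with log2 differences from 2.33 for Rnf182 down to 2.05 for Pkp2.

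The genes with the largest excess in cortex included Foxp2 and Rprm, both markers of deep-layer corticothalamic neurons. Foxp2, a transcription factor, read 217, 240.4 and 222 on the cortex arrays and 15.9, 1.59 and 0.834 on the hippocampus arrays (-3.52 ± 0.21, adjusted p = 6.24e-12). Rprm, which encodes the cell cycle inhibitor reprimo, read 558, 527 and 489.7 against 21.02, 35.4 and 48.8 (-3.44 ± 0.14, adjusted p = 7.22e-15). Nxph3, a secreted ligand of alpha-neurexins, read 238, 245 and 256 against 18.3, 8.97 and 6.74 (-3.29 ± 0.16). In these 3 genes the hippocampus was close to the floor of the arrays. That no hippocampus array reached a cortex array was a condition of their choice. Mef2c, an activity-regulated transcription factor, was bright in both regions and far apart, with 3827, 3592 and 3426 in cortex and 637, 633 and 621 in hippocampus (-2.49 ± 0.06, adjusted p = 4.98e-19). Camk2d, the delta isoform of calcium/calmodulin kinase II, read 1312, 1162 and 1267 against 178, 202 and 226 (-2.54 ± 0.08). Rgs4, which shortens G protein signals, read 1245, 1289.9 and 1201 against 146, 143 and 161 (-2.92 ± 0.08).

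Cux2, the factor of upper-layer neurons, was among the same 20 at -2.78 ± 0.19, as were Meis2 (-2.40 ± 0.11) and Tshz3 (-2.40 ± 0.12), both homeodomain factors, and Klf5 (-2.60 ± 0.15). Dpp10, an auxiliary subunit of A-type potassium channels, differed by -2.75 ± 0.11, and Fxyd6, a regulator of the sodium pump, by -3.08 ± 0.16. Tmem196, Exph5, Hs3st2, Ldb2, Tpbg, Atp6ap1l, Bmper and Tcerg1l completed the list, from -2.97 for Tmem196 to -2.41 for Tcerg1l. All 3 amygdala arrays were above all 3 hippocampus arrays in 19 of the 20 genes highest in cortex. In 15 of the 20, all 3 amygdala arrays were below all 3 cortex arrays. Both counts use the hippocampus and cortex arrays by which the 20 were picked, and the share over all genes is not given. Camk2d and Foxp2 were as bright in amygdala as in cortex or brighter, at 1995 ± 57.2 and 242 ± 28.4, whereas the BMP-binding protein Bmper was at 23.2 ± 9.37 in amygdala, near its hippocampus level of 17.6 ± 14.96. The size of a difference depended on the offset for genes near the floor. With an offset of 64 in place of 16, 13 of the 40 genes had differences more than 1.5 times smaller (Foxp2 at -2.06, Fibcd1 at 1.17). With an offset of 1, Foxp2 and Tpbg had differences more than 1.5 times larger, at -5.72 and -4.38. The order within the cortex list changed too: with an offset of 64 Rgs4 (-2.61) and Fxyd6 (-2.60) exceeded Rprm (-2.58) and Foxp2, and with an offset of 1 Nxph3 (-4.44) and Tpbg exceeded Rprm (-3.94).

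**Figure D1:**
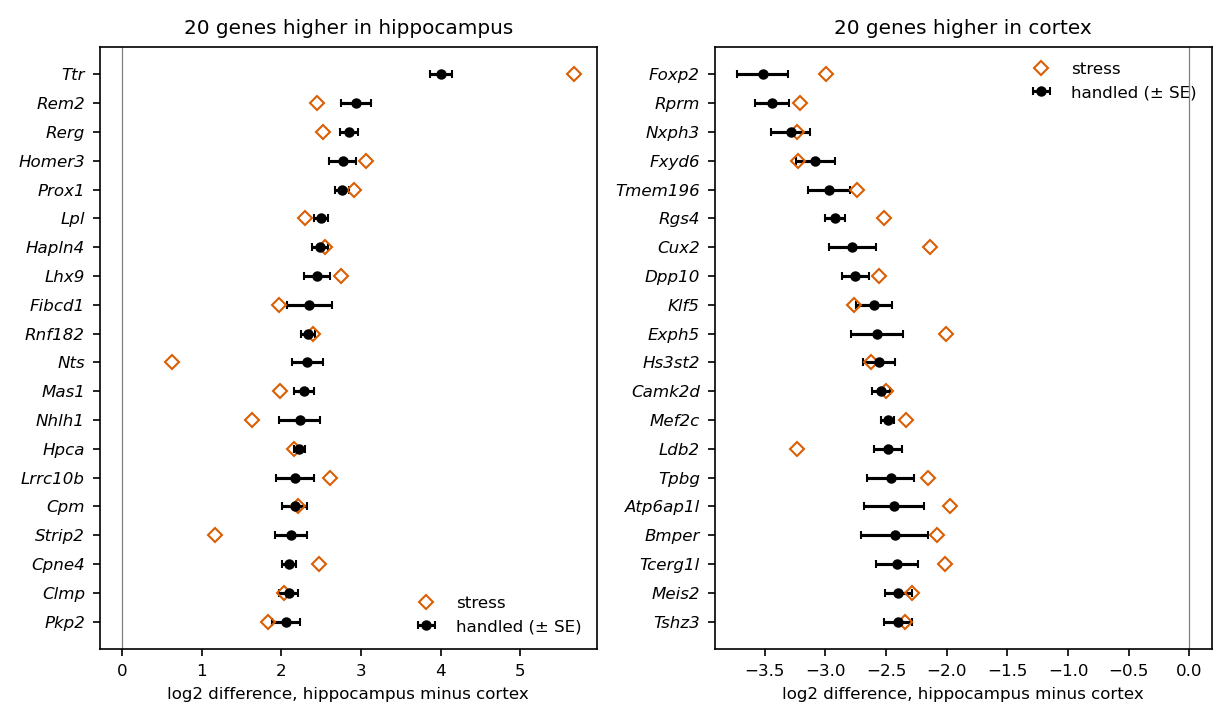
The 20 genes with the largest excess in handled hippocampus (left) and in handled cortex (right); the x axis is the log2 difference of hippocampus minus cortex, black points with bars are handled arrays ± SE and orange diamonds are the stress arrays. Every diamond lies on the same side of 0 as its black point, and Nts (2.32 handled, 0.62 stress) is the one furthest below its handled value among the genes high in hippocampus.

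Markers of the regions followed the titles in part. Of 9 dentate granule cell genes tested, 5 were called higher in hippocampus and 1 higher in cortex (2 without hippocampus array 3), with a median of 0.39. The differences of 4 of the 9 were below 0. The 5 became 4 without any 1 of the cortex arrays or without hippocampus array 2 or 3. Next to Prox1 stood the semaphorin Sema5a (1.48 ± 0.08), the cytokine Il16 (1.36 ± 0.12), Plk5 of the polo-like kinase family (1.51 ± 0.33) and the channel Trpc6 (0.39 ± 0.14), and the exception was Gabrd (-0.69 ± 0.11), the delta subunit of extrasynaptic GABA-A receptors. Of 16 CA field genes, 7 were called higher in hippocampus and 5 higher in cortex (median 0.20, or 0.11 without hippocampus array 3). The summed intensity of the 16 went the other way, at 5961 to 6008 in hippocampus and 6526 to 6816 in cortex. Grik4, the high-affinity kainate receptor subunit of CA3 synapses, read 303, 228 and 216 in hippocampus and 59.9, 65.5 and 71.2 in cortex (1.69 ± 0.20), and Bok, a member of the BCL2 family, differed by 1.57 ± 0.11. Higher in cortex were Ociad2 (-1.66 ± 0.09), Ccn3 (-1.62 ± 0.08), Coch (-0.99 ± 0.18), Man1a1 (-0.63 ± 0.09) and Wfs1 (-0.53 ± 0.10). A filter at the 60th percentile of intensity tests fewer genes. With it the CA field counts were 4 higher in hippocampus and 5 higher in cortex (median 0.08). For the dentate list they were 4 and 2 (median 0.15).

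Cortical layer genes were mostly higher in cortex, for deep and upper layers alike. Of 19 deep-layer genes, 13 were called higher in cortex and 3 higher in hippocampus (median -0.81). Beside Foxp2, Rprm and Nxph3, these were the subplate and layer 6b genes Ccn2 (-1.68 ± 0.11) and Cplx3 (-1.22 ± 0.20), the neurotensin receptor Ntsr1 (-1.52 ± 0.34), and the transcription factors Fezf2 (-1.13 ± 0.10), Etv1 (-1.14 ± 0.08) and Tbr1 (-0.86 ± 0.22). Fezf2, which specifies subcerebral projection neurons, read 310.4, 299 and 269 in cortex and 119, 129 and 128 in hippocampus, without overlap. Opposite were Nr4a2 (0.88 ± 0.14), Sulf2 (0.78 ± 0.06) and Bcl11b (0.69 ± 0.07), of which Bcl11b, or Ctip2, is also abundant in CA1 and granule cells. All 11 upper-layer genes tested were called, 8 higher in cortex and 3 higher in hippocampus (median -0.45). The 8 became 6 or 7 when any 1 of the 6 arrays was left out. After Cux2 came Cartpt (-1.40 ± 0.21) and Rorb (-0.76 ± 0.18), a factor of layer 4, and opposite were Nectin3 (1.40 ± 0.12), Rasgrf2 (0.83 ± 0.14) and Mdga1 (0.87 ± 0.20). For Nectin3, 1 of 2 probe sets had the other sign.

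**Figure D2:**
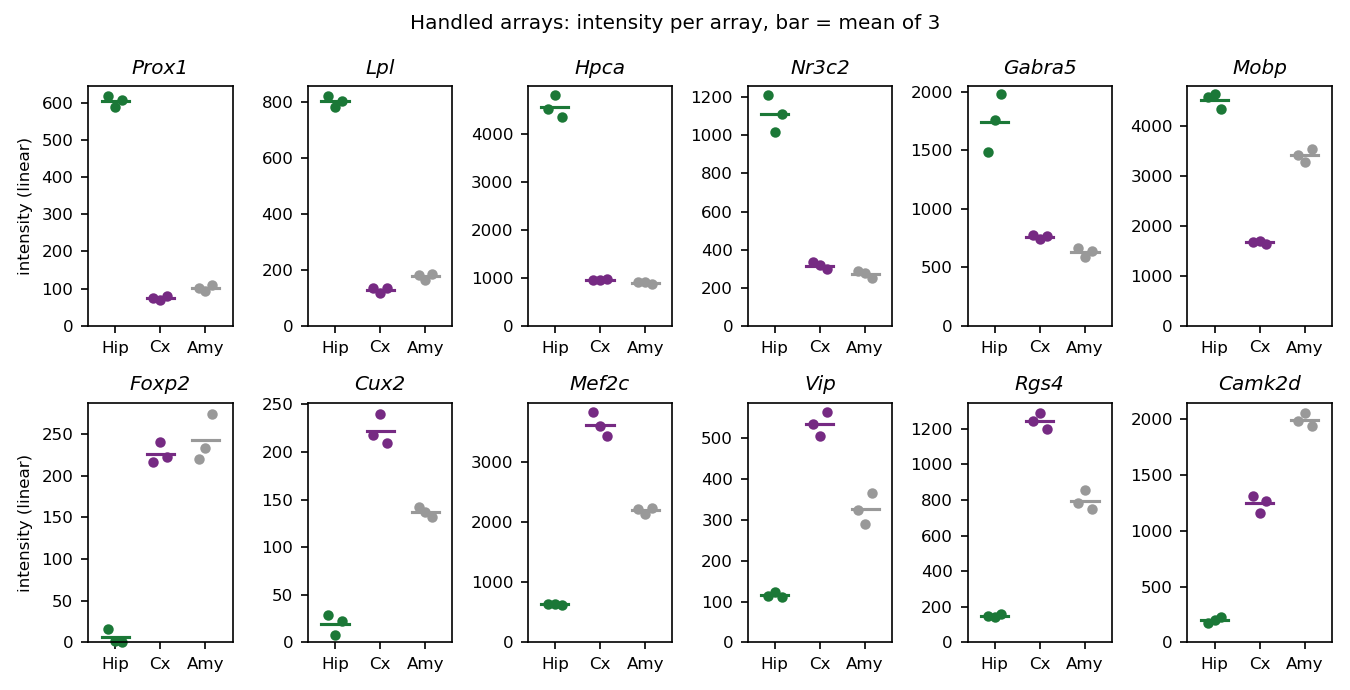
Intensity (linear scale from 0) of 12 genes on each handled array of hippocampus (Hip), cortex (Cx) and amygdala (Amy); points are arrays and bars the mean of 3. In the upper row all hippocampus arrays lie above all cortex arrays, and in the lower row all lie below them.

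Genes shared by glutamatergic neurons of the pallium were mostly higher in hippocampus. Of 12 tested, 9 were called higher there and 2 higher in cortex (median 0.59). Neurod6 read 2834, 2771 and 2699 in hippocampus against 881, 859.8 and 939 in cortex (1.61 ± 0.08). Bhlhe22 (1.33 ± 0.06), Neurod2 (1.23 ± 0.15), Neurod1 (1.21 ± 0.13), Emx2 (1.25 ± 0.17) and Lhx2 (0.66 ± 0.07) are further transcription factors of this lineage. Slc17a7, the vesicular glutamate transporter VGLUT1, differed by 0.52 ± 0.08, whereas Slc17a6, encoding VGLUT2 and typical of thalamic and other subcortical neurons, was higher in cortex at -1.11 ± 0.19. The other gene higher in cortex was Satb1 (-0.67 ± 0.10).

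Regional transcription factors split almost evenly, with 13 of 38 called higher in hippocampus and 14 higher in cortex (median -0.10, which turned to 0.13 when the median over all probe sets of a gene was used and to 0.03 without hippocampus array 3, and was -0.06 without cortex array 1 or hippocampus array 2). Zbtb20, which is needed for the identity of hippocampal pyramidal neurons, read 827, 1000.5 and 830.2 against 344, 393 and 366 (1.23 ± 0.13). The MEF2 family parted, with Mef2a at 0.29 ± 0.07 and Mef2c at -2.49, while Mef2d at -0.27 ± 0.12 was not called. Of the orphan nuclear receptors, Nr4a3 (1.40 ± 0.09) was higher in hippocampus, and Nr4a1 (-0.48 ± 0.14), Nr2f2 (-0.70 ± 0.09), Rora (-0.66 ± 0.14) and Rorb were higher in cortex. Tox (-2.17 ± 0.24), Egr2 (-1.72 ± 0.19) and the clock-related factor Npas2 (-1.26 ± 0.09) were also higher in cortex.

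No interneuron gene was called higher in hippocampus, and 11 of 21 were called higher in cortex (median -0.38). Vip, a peptide of disinhibitory interneurons, read 536, 506 and 565 in cortex and 113, 122 and 110.1 in hippocampus (-2.07 ± 0.10, adjusted p = 3.17e-13). Cck read 4102, 3401 and 3894 against 1465, 1211 and 1152 (-1.57 ± 0.08), and Sst, which marks dendrite-targeting interneurons, read 1001, 855 and 904 against 309.6, 372 and 393 (-1.33 ± 0.09). Every cortex array was above every hippocampus array for the 3 peptides. Reln (-0.90 ± 0.07), Crhbp (-0.80 ± 0.16), Dlx1 (-0.65 ± 0.15) and Npy (-0.37 ± 0.08) were higher in cortex by less. The fast-spiking marker Pvalb, at 253 ± 29.2 in hippocampus and 235 ± 20.7 in cortex (0.09 ± 0.11), was not called, and neither were Gad2 (-0.16 ± 0.18) and the vesicular GABA transporter Slc32a1 (-0.18 ± 0.11). Gad1, at -0.40 ± 0.05, was called, with 1 of 2 probe sets of the other sign.

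The wider list of peptides and their receptors had 17 of 30 called higher in cortex and 3 higher in hippocampus (median -0.47). Sstr1, a somatostatin receptor, read 357, 439 and 430.1 in cortex and 88.1, 72.3 and 77.7 in hippocampus (-2.15 ± 0.11). Tac1, the precursor of substance P (-1.95 ± 0.30), and the neurokinin receptor Tacr3 (-1.89 ± 0.22) were both higher in cortex, as were Cck and its receptor Cckbr (-1.72 ± 0.28), and Npy and its receptor Npy1r (-1.35 ± 0.09). Corticotropin-releasing hormone, Crh, read 70.9, 65.7 and 57.8 in cortex and 29.4, 31.3 and 34.96 in hippocampus (-0.75 ± 0.19, adjusted p = 0.00455), and its binding protein Crhbp went the same way. The 3 exceptions were Nts, the somatostatin receptor Sstr3 of neuronal cilia (0.73 ± 0.14) and Pdyn, the dynorphin precursor of mossy fibres (0.59 ± 0.16).

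Ionotropic glutamate receptors and their auxiliary subunits were divided, with 6 of 19 called higher in hippocampus and 5 higher in cortex (median 0.19). The hippocampus had more Grik4 and more of the kainate receptor auxiliary subunit Neto1 (1.41 ± 0.19), more Gria1 (0.82 ± 0.12), and more of the AMPA receptor partner Cnih2 (1.03 ± 0.08). Grin2a, an NMDA receptor subunit, differed by 1.09 ± 0.10, with 1 of 3 probe sets of the other sign. The cortex had more Grin3a (-0.89 ± 0.17), Cacng3 (-0.82 ± 0.14), Neto2 (-0.46 ± 0.11), Gria4 (-0.44 ± 0.16) and Gria3 (-0.38 ± 0.10), a count that became 3 without hippocampus array 3. Grin1 (0.26 ± 0.11) and Grin2b (0.07 ± 0.17) were not called. Of 8 metabotropic receptors and Homer proteins, Homer3 was higher in hippocampus while Homer1 (-0.56 ± 0.08) and Grm3 (-0.58 ± 0.10) were higher in cortex.

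Genes of GABA receptors, listed with glycine receptor subunits and gephyrin, had 5 of 13 called in each direction (median 0.08). Gabra5, the subunit of tonic inhibition in hippocampal pyramidal cells, read 1488, 1757 and 1981 in hippocampus and 780.1, 741 and 768 in cortex (1.16 ± 0.09, adjusted p = 2.73e-10). Gabra3 (-1.32 ± 0.20), Glra2 of the glycine receptor (-1.24 ± 0.09), Gabrd and Gabrb2 (-0.64 ± 0.07) were higher in cortex. The count higher in hippocampus became 3 without cortex array 1 or 3, without hippocampus array 1 or 3, or without the variance trend, and the median ranged from -0.04 without hippocampus array 3 to 0.14 without hippocampus array 1.

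Receptors for serotonin, noradrenaline, dopamine, histamine and acetylcholine had 5 of 20 called higher in hippocampus and 7 higher in cortex (median -0.45, and 0.03 with no filter on low values). Serotonin receptors went in opposite directions. Htr4 read 113, 104 and 83.6 in hippocampus and 30.02, 21.9 and 36.3 in cortex (1.36 ± 0.18), and Htr1a, the inhibitory receptor, read 138, 125 and 137 against 59.6, 44.4 and 64.6 (1.06 ± 0.15). Htr2c read 599, 595 and 609 in cortex and 114, 99.2 and 117 in hippocampus (-2.29 ± 0.09), and Htr2a read 119, 146 and 99.2 against 56.6, 28.6 and 27.6 (-1.39 ± 0.20). None of these 4 receptors had overlapping groups. Adra1d was higher in hippocampus (0.73 ± 0.13) and Adra2a in cortex (-1.53 ± 0.14), and Hrh3 (-1.82 ± 0.18), Drd1 (-1.69 ± 0.14) and the nicotinic subunit Chrna4 (-1.93 ± 0.28) were higher in cortex. With a filter at the 60th percentile the counts were 3 and 4.

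Corticosteroid signalling genes were called in 1 direction only. Of 12 tested, 7 were higher in hippocampus and none was higher in cortex (median 0.38). Nr3c2, the mineralocorticoid receptor, read 1211, 1019.6 and 1109.7 in hippocampus and 335, 317 and 298 in cortex (1.76 ± 0.08, adjusted p = 2.12e-14). Nr3c1, the glucocorticoid receptor, was 391 ± 40.7 in hippocampus and 418 ± 12.8 in cortex and was not called (-0.10 ± 0.09, adjusted p = 0.484). Hsd11b1, which regenerates active glucocorticoid inside cells, read 667, 691 and 712 against 319.6, 319 and 325 (1.07 ± 0.08). Sgk1 (1.20 ± 0.07) and Fkbp5 (1.01 ± 0.12), both known to respond to corticosteroids, were higher in hippocampus, and Klf9 (0.46 ± 0.07), Ddit4 (0.52 ± 0.13) and the coactivator Ncoa1 (0.29 ± 0.06) differed by less. Not called were Tsc22d3 (0.12 ± 0.08), Mt2A (0.25 ± 0.14), Fkbp4 (0.11 ± 0.10) and Per1 (-0.42 ± 0.25).

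Potassium channel genes had 11 of 41 called higher in hippocampus and 18 higher in cortex (median -0.31). The A-type current complex was divided. Its pore subunit Kcnd2 (0.81 ± 0.09) and the auxiliary subunits Kcnip2 (1.79 ± 0.08) and Dpp6 (0.61 ± 0.05) were higher in hippocampus, and the pore subunit Kcnd3 (-0.43 ± 0.10) with the auxiliary subunits Kcnip1 (-0.73 ± 0.10), Kcnip3 (-0.76 ± 0.12) and Dpp10 were higher in cortex. Kcnip2 read 891, 884 and 922 in hippocampus and 262, 240.2 and 242 in cortex. Kcna1 (1.33 ± 0.10) and the GIRK subunit Kcnj6 (0.98 ± 0.08) were higher in hippocampus, and the leak channel Kcnk2 (-1.32 ± 0.15) and Kcna5 (-1.24 ± 0.20) in cortex. Sodium, calcium and HCN channel genes had 8 of 25 higher in hippocampus and 3 higher in cortex (median 0.13), the 3 becoming 1 without cortex array 3, without hippocampus array 3 or without the variance trend. They were led by the sodium channel subunit Scn3b (1.26 ± 0.05) and opposed by Scn3a (-0.82 ± 0.10).

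Calcium handling showed pairs of relatives on opposite sides. Of 32 calcium-dependent kinases, phosphatases and related genes, 14 were called higher in hippocampus and 10 higher in cortex (median 0.10, 0.21 without hippocampus array 1 and 0.06 without array 2). Among CaM kinase II subunits, Camk2b (0.88 ± 0.06) and Camk2a (0.35 ± 0.11) were higher in hippocampus, Camk2d at -2.54 was higher in cortex, and Camk2g (-0.10 ± 0.11) was not called. The endogenous inhibitor Camk2n1 was higher in cortex (-0.81 ± 0.15). The calcineurin subunits Ppp3ca (0.67 ± 0.06) and Ppp3r1 (0.59 ± 0.07), the kinase Camkk1 (1.07 ± 0.08) and the ryanodine receptor Ryr2 (1.30 ± 0.06) were higher in hippocampus, and Plcb4 (-1.81 ± 0.13) was higher in cortex. Calcium sensors and buffers had 5 of 18 higher in hippocampus and 7 higher in cortex (median -0.23). Hpca stood against its close relative Hpcal1, which read 656, 653 and 617 in cortex and 173, 225 and 173 in hippocampus (-1.68 ± 0.10). Vsnl1 (-0.58 ± 0.06) and Hpcal4 (-0.56 ± 0.06) of the same family were also higher in cortex. The count of 5 became 3 without hippocampus array 1.

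Regulators of G protein signalling had 2 of 15 higher in hippocampus and 6 higher in cortex (median -0.22, or -0.14 without cortex array 1). Rgs4 and Rgs2 (-1.17 ± 0.12) led in cortex and Rgs10 (1.22 ± 0.07) in hippocampus. Cyclic nucleotide and nitric oxide signalling was mostly higher in cortex, with 13 of 28 called against 1 in hippocampus (2 without hippocampus array 1 or 2, and 3 with median centring; median -0.39). Both subunits of soluble guanylate cyclase, the receptor of nitric oxide, were among them. Gucy1a1 read 664, 628 and 733 in cortex and 204, 228 and 208 in hippocampus (-1.59 ± 0.09), and Gucy1b1 differed by -1.25 ± 0.09. The protein kinase A subunits Prkar2b (-1.43 ± 0.07) and Prkacb (-0.90 ± 0.08) and the phosphodiesterase Pde4d (-0.87 ± 0.10) were higher in cortex as well, and Pde10a (0.33 ± 0.09) was the exception.

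Axon guidance genes had 14 of 37 called higher in hippocampus and 7 higher in cortex (median 0.20, or 0.31 without hippocampus array 3). Both neuropilins, receptors of class 3 semaphorins, were higher in hippocampus, with Nrp1 at 585, 737 and 669 against 224, 214 and 201 (1.56 ± 0.10) and Nrp2 at 402, 397 and 385 against 125, 159.5 and 128 (1.43 ± 0.13). The class 3 semaphorins Sema3e (0.96 ± 0.10) and Sema3c (0.45 ± 0.10) went the same way. Of the EphA receptors, Epha7 (1.34 ± 0.14), Epha4 (1.09 ± 0.06), Epha6 (0.95 ± 0.14), Epha5 (0.68 ± 0.12) and Epha3 (0.38 ± 0.14) were all higher in hippocampus, whereas Efna5, a ligand of this receptor class, read 156, 183 and 206 in cortex and 23.3, 22.9 and 25.2 in hippocampus (-2.30 ± 0.18). Plexins Plxnc1 (-1.15 ± 0.14) and Plxnd1 (-1.05 ± 0.19) and the receptor Ephb6 (-1.08 ± 0.13) were higher in cortex.

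Adhesion molecules had 16 of 37 called higher in cortex and 8 higher in hippocampus (median -0.18). Cortex had more Ncam2 (-1.73 ± 0.16), Cdh13 (-1.70 ± 0.12), Negr1 (-1.25 ± 0.09) and the contactins Cntn6 (-1.45 ± 0.23), Cntn4 (-1.17 ± 0.18) and Cntn3 (-0.97 ± 0.13). Hippocampus had more of the protocadherin Pcdh20 (1.27 ± 0.09) and the neuronal pentraxin Nptx1 (0.83 ± 0.07). Within the IgLON family, Opcml (0.58 ± 0.08) and Lsamp (0.40 ± 0.10) were higher in hippocampus and Negr1 and Ntm (-0.68 ± 0.09) in cortex.

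Growth factors and their receptors were divided, with 11 of 35 higher in hippocampus and 12 higher in cortex (median 0.03, from -0.01 without cortex array 2 to 0.05 without hippocampus array 3, so its sign was not settled). Bdnf, the neurotrophin of activity-dependent plasticity, read 464, 427 and 412 in hippocampus and 142, 163 and 146 in cortex (1.44 ± 0.11), Ntf3 differed by 0.72 ± 0.15, and their receptors Ntrk2 (-0.13 ± 0.06) and Ntrk3 (0.22 ± 0.22) were not called. Fgfr1 read 888, 918 and 826 against 246, 232 and 268 (1.76 ± 0.09). Gfra2, the neurturin receptor, was higher in cortex (-1.98 ± 0.14), as was the BMP antagonist Nog (-1.35 ± 0.14). Wnt genes had 5 of 19 higher in hippocampus and 2 higher in cortex (median 0.14; 3 higher in hippocampus with a filter at the 60th percentile, and 1 higher in cortex without cortex array 1 or 2 or any hippocampus array), with Wnt4 at 1.42 ± 0.13 and the secreted inhibitor Sfrp1 at -0.99 ± 0.16. Genes of neurogenesis and immature neurons had 4 of 19 higher in hippocampus and 8 higher in cortex (median -0.20). The 8 became 6 or 7 under every alternative except an offset of 64. Dcx, which marks newborn neurons, was 67.8 ± 22.99 in hippocampus and 77.8 ± 15.7 in cortex and was not called, and Stmn1 (-1.19 ± 0.07) led in cortex.

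Immediate early genes had 5 of 18 called higher in hippocampus and 8 higher in cortex (median -0.16). Fos read 158, 147 and 136 in cortex and 52.1, 36.7 and 58.7 in hippocampus (-1.34 ± 0.18), and Egr2 (-1.72), Dusp1 (-1.12 ± 0.14) and Egr1 (-0.83 ± 0.08) were also higher in cortex. Nr4a3, Nr4a2, Jun (0.70 ± 0.12) and Dusp6 (0.67 ± 0.13) joined Bdnf in hippocampus, and Arc (0.36 ± 0.14) was not called. The count of 8 became 5 without cortex array 2 or with a filter at the 60th percentile. Presynaptic genes had 6 of 36 higher in hippocampus and 10 higher in cortex (median -0.05, or -0.10 without cortex array 2 or hippocampus array 3). The SNARE Vamp1 read 977, 926 and 955 in hippocampus and 333, 394 and 359.7 in cortex (1.36 ± 0.07), the SNARE Stx1a read 771, 784 and 845 in cortex and 281, 246 and 237 in hippocampus (-1.59 ± 0.12), and Syp (0.09 ± 0.09), Syn1 (-0.04 ± 0.07) and Snap25 (0.12 ± 0.06) were not called.

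**Figure D3:**
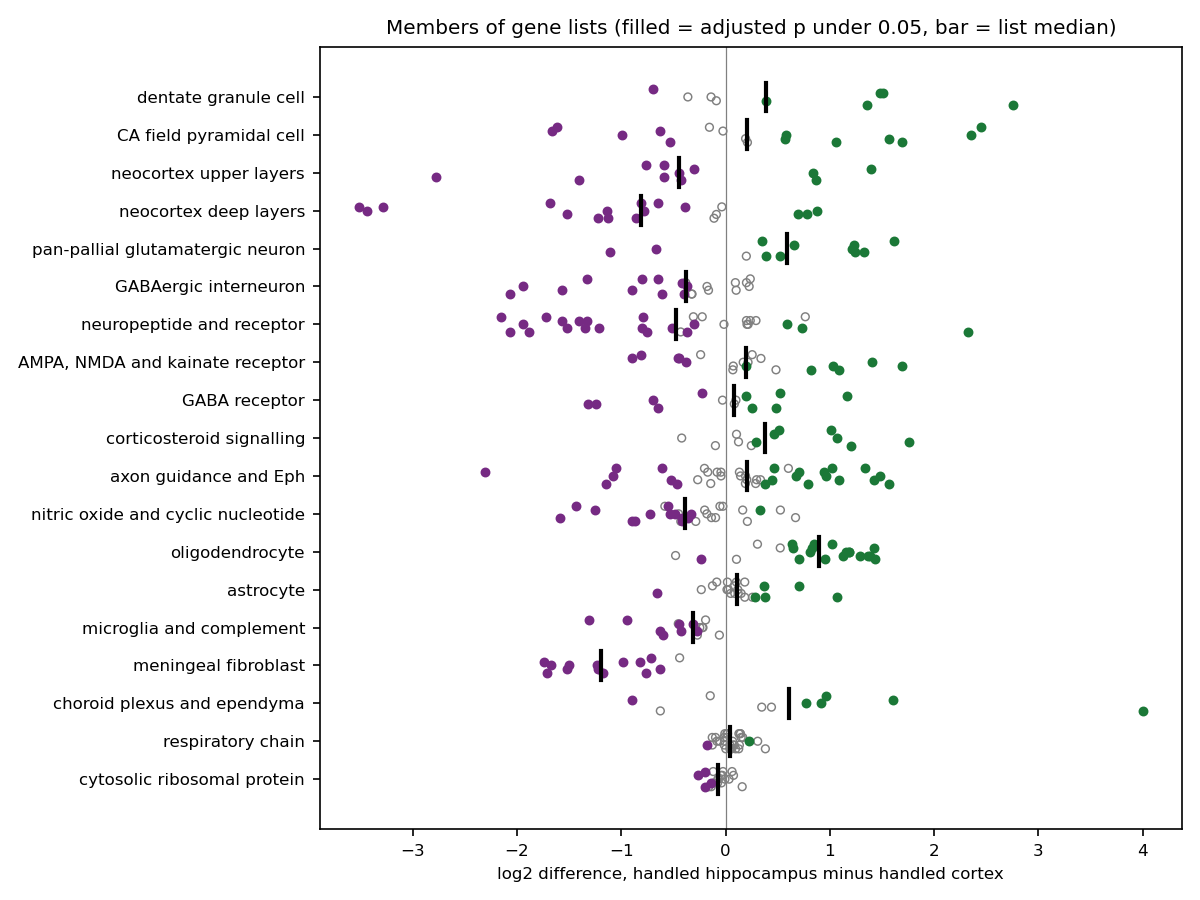
Log2 difference of handled hippocampus minus handled cortex (x axis) for the tested members of 19 gene lists (rows); filled points are called genes, green higher in hippocampus and purple higher in cortex, open points are not called, and black bars are list medians. Meningeal (median -1.20) and oligodendrocyte (0.90) members lie almost wholly on 1 side, while respiratory chain and ribosomal members lie close to 0.

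Oligodendrocyte genes were the group most evenly higher in hippocampus among the glial lists. Of 22 tested, 17 were called higher there and 1 higher in cortex (median 0.90). Mobp, a component of compact myelin, read 4578, 4639 and 4333 in hippocampus and 1682, 1694 and 1626 in cortex (1.43 ± 0.07, adjusted p = 7.83e-14). Mag, an adhesion protein of the inner myelin membrane, read 497, 482 and 494 against 176, 176 and 182 (1.39 ± 0.10). Opalin, specific to myelinating oligodendrocytes, read 429.9, 423 and 397 against 164, 134 and 188 (1.29 ± 0.10), and Cnp, a phosphodiesterase of non-compact myelin, read 2004, 2025 and 2019.6 against 1111, 1052 and 1176 (0.85 ± 0.07). No arrays overlapped in these 4 genes. Mbp (0.70 ± 0.07), Mog (1.19 ± 0.09), and the lineage factors Sox10 (0.64 ± 0.14) and Olig1 (0.64 ± 0.07) were also higher in hippocampus. The member higher in cortex was Pdgfra (-0.24 ± 0.08), the receptor of oligodendrocyte precursors, whose call ended without cortex array 2 or 3 or hippocampus array 1, and the precursor proteoglycan Cspg4 (-0.48 ± 0.19) was not called.

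SOX factors such as Sox10 bind a core that was searched for as ACAAAG on both strands, so that the reverse complement reads CTTTGT, in the 250 bases before the annotated gene start. Of the 17 oligodendrocyte genes called higher in hippocampus, 12 had a promoter in the RefSeq table for build GRCr8, and 4 of these held the core (33.3%), against 16.3% of all 33469 promoters. A match is a description of the letters and not evidence of binding. The share of 33.3% rests on 12 promoters, and its distance from 16.3% was not tested. Stretches are shown for Mag, Cnp and Opalin, which held the core. Each is 100 bases, 5′ to 3′ on the gene's strand, with the core in capitals. Mag lies on the minus strand at chr1:95291144-95291243, Cnp on the plus strand at chr10:86011254-86011353 and Opalin on the minus strand at chr1:249858326-249858425. The fourth gene with the core was Mobp, with 8 matches, and its stretch is not shown.
Mag: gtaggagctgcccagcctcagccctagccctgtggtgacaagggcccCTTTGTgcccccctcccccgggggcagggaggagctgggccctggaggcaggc
Cnp: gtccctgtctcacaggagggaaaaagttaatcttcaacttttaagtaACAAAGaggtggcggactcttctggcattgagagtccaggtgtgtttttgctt
Opalin: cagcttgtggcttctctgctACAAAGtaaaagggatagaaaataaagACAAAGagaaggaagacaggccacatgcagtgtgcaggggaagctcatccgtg

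Astrocyte genes differed less, with 5 of 22 called higher in hippocampus and 1 higher in cortex (2 without hippocampus array 1 or with quantile normalization; median 0.11). Gfap, the intermediate filament of astrocytes, read 3236, 3177 and 3283 in hippocampus and 1506, 1596 and 1503 in cortex (1.07 ± 0.06), while Aqp4 (0.05 ± 0.07), Gja1 (0.09 ± 0.06), Aldh1l1 (0.18 ± 0.16) and Slc1a3 (-0.08 ± 0.06) were not called. Microglial and complement genes were called higher in cortex in 8 of 15 cases and never higher in hippocampus (median -0.31), for example P2ry12 (-0.43 ± 0.09), Cx3cr1 (-0.62 ± 0.20) and Ctss (-0.44 ± 0.08). The largest difference was in Cd74, a chaperone of MHC class II made by macrophages and other antigen-presenting cells (-1.31 ± 0.17). That count became 5 without hippocampus array 1. Endothelial and mural genes had 5 of 18 higher in cortex and none higher in hippocampus (median -0.27), a count that became 2 without cortex array 2 or 3 or with a filter at the 60th percentile, and 3 without cortex array 1 or hippocampus array 2. Vwf (-0.81 ± 0.21) and Myl9 (-0.90 ± 0.20) were called, and the endothelial genes Cldn5 (-0.17 ± 0.11) and Flt1 (-0.07 ± 0.17) were not.

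Genes of meningeal fibroblasts were higher in cortex almost throughout. Of 14 tested, 13 were called higher in cortex and none higher in hippocampus (median -1.20), and with a filter at the 60th percentile, which tests fewer of them, 4 were called. The matrix genes Col3a1, at 246, 248 and 234 in cortex and 60.2, 71.8 and 62.7 in hippocampus (-1.68 ± 0.16), Ogn (-1.74 ± 0.16), Dcn (-1.71 ± 0.22) and Col1a2 (-1.52 ± 0.16), the gap junction gene Gjb2 (-1.50 ± 0.15) and the growth factor Igf2 (-1.22 ± 0.12) were among them. Summed over the 14 genes, intensity was 2323 to 2496 on the hippocampus arrays and 5383 to 5603 on the cortex arrays. On cortex arrays of the stress group the same sum was 2355 to 2471, next to 2061 to 2102 on those of the hippocampus. The meningeal sum was thus high in handled cortex alone among these groups. Its part in the other cortex-high groups, among them microglial, vascular and retinoid genes, was not tested.

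Choroid plexus and ependymal genes went the other way, with 5 of 10 called higher in hippocampus and 1 higher in cortex (median 0.61). The summed intensity of the 10 was 1614 to 1794 in hippocampus and 373 to 465 in cortex, and Ttr was 1102 ± 54.98 and 54.5 ± 12.8 of it. Calml4 (1.60 ± 0.23), Folr1 (0.91 ± 0.21), Dynlrb2 (0.97 ± 0.13) and Tmem212 (0.78 ± 0.20) were the others higher in hippocampus, and Rsph1 (-0.90 ± 0.25) was higher in cortex, a count of 1 that became 0 without hippocampus array 2 and 2 without array 3. The water channel Aqp1, at 58.8 ± 13.5 and 65.95 ± 2.57, was not called. A filter at the 60th percentile left 2 called.

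Markers of neighbouring brain regions were higher in cortex more often than in hippocampus. Striatal genes had 4 of 12 higher in cortex and 2 higher in hippocampus (median -0.47), thalamic and habenular genes 6 of 10 and none (-0.70; 3 higher in cortex with a filter at the 60th percentile), and amygdala genes 7 of 11 and 2 (-0.70). Single arrays left out made the count of thalamic genes higher in hippocampus 1 (cortex array 3 or hippocampus array 1) and that of amygdala genes 1 (cortex array 2 or 3, hippocampus array 1 or 3). Drd1, Tac1 and Penk (-1.21 ± 0.09) were the striatal genes with the largest excess in cortex, and Meis2, Etv1 and Cyp26b1 (-1.12 ± 0.08) those of the amygdala list. Drd2 (-0.78 ± 0.31) and Adora2a (-0.59 ± 0.28), markers of the indirect pathway of the striatum, were not called, at 45.2 ± 3.90 and 25.9 ± 12.9 in cortex. Whether tissue next to the dissected cortex adds to these values was not tested. Retinoid genes had 2 of 12 higher in hippocampus and 5 higher in cortex (median -0.27, -0.45 without hippocampus array 1 and -0.17 without array 2; 1 higher in hippocampus without any of the 3 cortex arrays or hippocampus array 1 or 2), with Aldh1a1 (1.36 ± 0.11) against Rbp4 (-1.20 ± 0.14), Aldh1a2 (-1.17 ± 0.20) and Rxrg (-1.11 ± 0.12).

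Genes that all cells use differed little in size. Of 32 respiratory chain genes, Ndufa4 (0.22 ± 0.05) was called higher in hippocampus and Ndufv1 (-0.17 ± 0.06) higher in cortex (median 0.05, 0.03 without cortex array 2, 0.08 without hippocampus array 2 and 0.01 with quantile normalization). These counts lay between 1 and 3 and between 0 and 2 under the alternatives, left-out arrays among them. Of 20 cytosolic ribosomal protein genes, 4 were called higher in cortex, with Rpl11 (-0.26 ± 0.05) the largest, and none higher in hippocampus (median -0.07). Quantile normalization raised the 4 to 10 (median -0.13), and the count was 2 without cortex array 2 or without the variance trend. Without hippocampus array 2 that median was -0.04.

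The same regional contrast was then measured in the stress arrays, which share no sample with the handled ones and share only the estimate of spread. There 4718 probe sets were called (25.3%), 2226 higher in hippocampus and 2492 higher in cortex. Of the 2278 probe sets called higher in handled hippocampus, 2229 had the same sign in stress and 1636 were called, which was 71.8% of the handled calls and 73.5% of the stress calls in that direction. Of the 2537 higher in handled cortex, 2470 had the same sign and 1804 were called (71.1% and 72.4%). A single probe set was called in opposite directions. All 40 genes with the largest handled differences were called in the same direction, for example Prox1 (2.91 ± 0.09), Hpca (2.16 ± 0.07), Foxp2 (-2.99 ± 0.21) and Mef2c (-2.33 ± 0.06). So were Nr3c2 (1.51 ± 0.08), Gabra5 (1.43 ± 0.09), Vip (-2.15 ± 0.10), Efna5 (-1.51 ± 0.18) and Mobp (1.19 ± 0.07). Gene groups changed to unlike degrees. Meningeal genes, at 13 higher in cortex and 0 in hippocampus in handled rats, had 7 and 1 in stress (median -0.23). GABA receptor genes went from 5 higher in each region to 1 in hippocampus and 4 in cortex (median -0.06). Interneuron genes had 2 higher in hippocampus and 14 in cortex (median -0.43). Oligodendrocyte genes had 19 and 0 (0.74), and deep-layer genes 3 and 12 (-0.74). The median stress difference of the handled calls was 0.45 where the handled one was 0.53, and -0.44 where it was -0.53; the handled values had been selected for size. Across the 18625 probe sets, which are not independent replicates, the 2 sets of log2 differences had a Pearson r of 0.848.

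**Figure D4:**
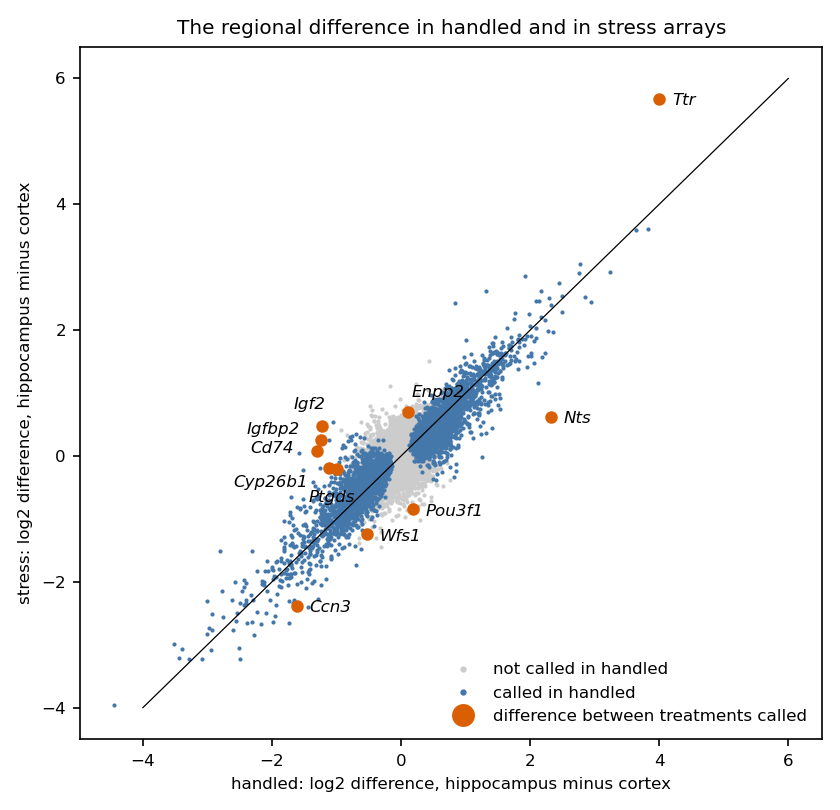
Log2 difference of hippocampus minus cortex in handled arrays (x axis) and in stress arrays (y axis) for 18625 probe sets; blue points were called in handled arrays, the line marks equal values, and orange points are 11 named genes whose difference between treatments was called. Igf2, Igfbp2 and Cd74 lie left of 0 on the x axis and above 0 on the y axis, while Nts lies far below the line.

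The regional difference itself differed between treatments, by the interaction term, for 16 probe sets (0.0859%), 8 in each direction, while 1049 had an unadjusted p under 0.05. Of these 16, 4 had no single gene symbol and 1 belonged to Ywhab, whose brightest probe set was not the one called. The other 11 were 1 gene each. Several were genes of the meninges and choroid plexus. Igf2 read 419, 414 and 465 on handled cortex arrays and 110.4, 175 and 140.2 on stress cortex arrays, against 192, 184 and 155 and 187, 192 and 224 in hippocampus, so that the difference turned from -1.22 ± 0.12 in handled to 0.48 ± 0.12 in stress rats (change 1.69 ± 0.18, adjusted p = 2.50e-05). Igfbp2 (1.48 ± 0.18), Cd74 (1.39 ± 0.24), Cyp26b1 (0.92 ± 0.11) and Ptgds (0.78 ± 0.08), which encodes prostaglandin D synthase of meninges and choroid plexus, changed in the same direction. The sign turned for Igfbp2 and Cd74, as for Igf2, whereas the differences of Cyp26b1 and Ptgds shrank and stayed below 0. Each of these genes had all 3 handled cortex arrays above all 3 stress cortex arrays, which are arrays of the test that picked them. The summed meningeal level given above, which includes Igf2, had the same order. Ttr read 1038, 1128 and 1138 in handled and 3408, 3549 and 3274 in stress hippocampus, with cortex arrays at 40.4, 65.2 and 57.9 and 58.3, 32.1 and 68.1 (change 1.67 ± 0.20, adjusted p = 7.51e-05), and the sum of the choroid plexus list in hippocampus moved with it, from 1614 to 1794 in handled to 3901 to 4160 in stress arrays. The part of meninges and choroid plexus in these changes was not tested.

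Neuronal genes were among those with a change in the other direction. Nts read 144, 209.6 and 169.6 in handled and 104, 89.5 and 82.8 in stress hippocampus, and 27.3, 31.98 and 9.86 and 52.4, 47.1 and 63.7 in cortex, which brought the difference from 2.32 ± 0.19 to 0.62 ± 0.19 (change -1.70 ± 0.27, adjusted p = 0.00592). Pou3f1, a POU factor of CA1 pyramidal cells, read 172, 177 and 218 in handled and 90.5, 82.6 and 90.5 in stress hippocampus, with cortex at 184, 144 and 162 and 179.9, 171 and 162 (change -1.04 ± 0.20, adjusted p = 0.0326). Wfs1, also a marker of CA1, read 194, 198 and 184 and 100.4, 119.7 and 113 in hippocampus (change -0.71 ± 0.14, adjusted p = 0.0325), and Ccn3, another gene of the CA field list, 290.3, 331 and 336 and 198, 239 and 203 (change -0.76 ± 0.11, adjusted p = 0.000994). In each of these 4 genes the handled and stress arrays of the hippocampus did not overlap. The test that picked these genes used the same arrays. Enpp2, encoding autotaxin of oligodendrocytes and choroid plexus, was not called in the handled contrast and differed between treatments by 0.59 ± 0.11 (adjusted p = 0.0265). Fos, at -1.34 ± 0.18 in handled and -0.48 ± 0.18 in stress rats, did not pass this test (change 0.86 ± 0.25, adjusted p = 0.513). Leaving out cortex handled array 3 or cortex stress array 3 left 10 probe sets called and ended the call of Cd74. The call of Enpp2 ended under 11 of 21 alternatives, that of Pou3f1 under 13 and that of Wfs1 under 15, and the other 7 genes kept theirs under all that were run.

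**Figure D5:**
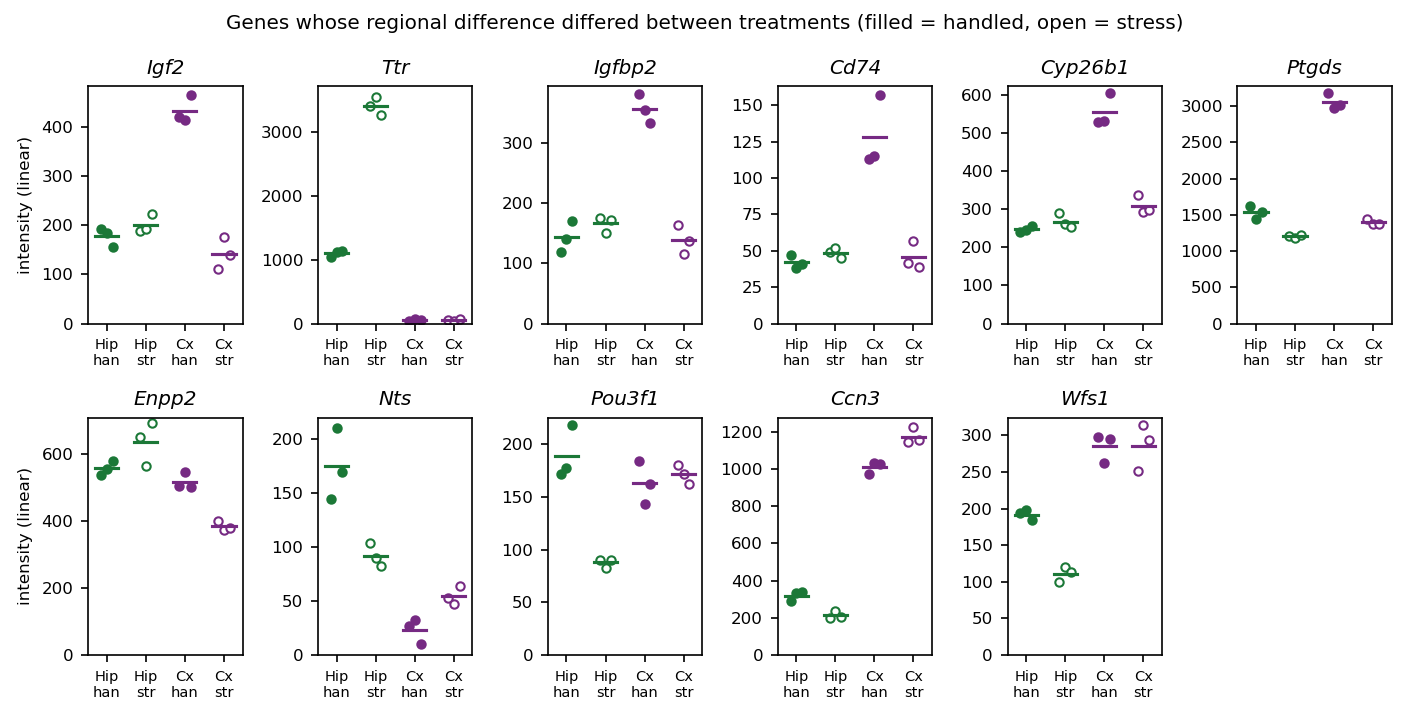
Intensity (linear scale from 0) of the 11 genes whose regional difference differed between treatments, on handled (han, filled) and stress (str, open) arrays of hippocampus (Hip, green) and cortex (Cx, purple); points are arrays and bars the mean of 3. For Igf2, Igfbp2, Cd74, Cyp26b1 and Ptgds the handled cortex arrays stand above the other groups, for Ttr the stress hippocampus arrays do, and for Nts the handled hippocampus arrays do.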

How the data were processed

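The authors deposited linear intensities, 1 for each probe set on each array; the summarisation software is not given in the sources used here. Each array, to judge by its values, had been scaled to a mean, trimmed by 2% at each tail, of 150.04 or 150.05, and no scaling was added. Scan dates and detection calls were not used here. Values were tested as log2 of the deposited intensity plus 16. Of 31099 probe sets, 57 controls were left out, and the 18625 whose mean reached the 40th percentile, with 10256 genes, were tested. Names came from the platform's annotation, updated through RefSeq: 20832 probe sets had 1 symbol, 436 several and 9831 none, and only the first were named.

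Group means of all 18 arrays were fitted with limma 3.58.1 in R 4.3.3 (12 residual and 10.2 prior degrees of freedom, variance trend), two-sided, with Benjamini-Hochberg adjustment. The text names the 20 genes per direction with the largest difference whose handled arrays did not overlap, the genes of the treatment difference, and members of 38 lists, each gene by its brightest probe set. Members and lists were chosen with earlier results of these data known. Deviations from the group mean were weakly correlated between same-numbered arrays of handled hippocampus and cortex (0.0105 to 0.0301). For arrays of different number the range was lower, at -0.0168 to 0.0049. Stress hippocampus and cortex had 0.0233 to 0.0394 for the same number and -0.0254 to 0.0003 for different ones. The main fit did not use the numbers as pairs, and the block was an alternative. Alternatives covered offset, filter, scaling, variance trend, arrays in the fit, block and left-out arrays.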

Additional observations from a re-analysis of the deposited data

Results flagged for a closer look

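The test of the difference between treatments singled out 11 genes, for which the hippocampus minus cortex difference is given as stress minus handled on the log2 scale. It was above 0 for Igf2 (1.69), Ttr (1.67), Igfbp2 (1.48), Cd74 (1.39), Cyp26b1 (0.92), Ptgds (0.78) and Enpp2 (0.59). Below 0 were Nts (-1.70), Pou3f1 (-1.04), Ccn3 (-0.76) and Wfs1 (-0.71). Groups of 3 arrays are too small for a test of single outlying arrays, and none was made.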

How the results depend on the processing

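The count of handled calls was 4815, with 3988 to 4381 when any 1 of the 6 arrays was left out (1892 to 2048 higher in hippocampus and 2072 to 2345 higher in cortex) and 4200 to 4901 under the other alternatives. Median centring turned the majority, to 2536 higher in hippocampus and 2303 higher in cortex. The stress contrast, at 4718 calls, had 3846 to 4162 with an array left out (1831 to 1946 higher in hippocampus and 2007 to 2216 higher in cortex) and 4168 to 5130 otherwise, with the majority turned likewise by median centring (2513 and 2218). The treatment difference, at 16 calls, had 10 to 16 with an array left out (5 to 10 above 0, 5 to 8 below 0) and 13 to 17 otherwise. With the replicate number as a block the counts were 4769 (4673 shared with the fit without it), 4695 and 15, and the block ended the call of Wfs1 but of none of the other 10 treatment-difference genes and none of the 40 genes with the largest differences. Summed over the 38 lists, in which a gene can stand more than once, 461 calls became 422 to 442 with an array left out, 458 with the block and 379 to 470 otherwise; the block, the variance trend, the arrays in the fit and the left-out arrays were added for the lists after the data were seen. The 40 genes with the largest differences kept direction and call in all 584 values, though Fibcd1 and Nhlh1 did not pass the filter with an offset of 1. Of 229 values of the 11 treatment-difference genes, 188 kept the call, 41 lost it and 0 turned. For dim probe sets, such as that of Foxp2 in hippocampus, the size and rank of a difference moved with the offset.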
